A study of Mus musculus with 15 samples.

Results

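The 8 genes described here encode proteins that shorten the life of messenger RNA: Zfp36, Zfp36l1, Zfp36l2, Zc3h12a, Btg1, Btg2, Tob1 and Tob2. They were chosen by name from a table of 23284 genes, with the FPKM values of the same 15 kidney libraries in view, so their levels and differences are given as a description, with no test of their own. FPKM is a count of sequenced fragments scaled to transcript length and to library depth. All 8 genes passed the filter for the fit across genes, which asked for 1 FPKM or more in at least 5 libraries and kept 11781 genes. Zc3h12a passed with 13 of 15 libraries at or above that level, and the other 7 genes reached it in every library.

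Most messenger RNAs begin to decay when their poly(A) tail is shortened, chiefly by the CCR4-NOT complex. The tail-less RNA is then decapped and digested from its 5′ end, or digested from its 3′ end by the exosome. Zfp36 (tristetraprolin) and its relatives Zfp36l1 and Zfp36l2 are zinc finger proteins that bind AU-rich elements, short ATTTA-containing stretches of 3′ untranslated regions, and bring CCR4-NOT to those transcripts. Zc3h12a (Regnase-1) is an endonuclease that cuts stem-loops in the 3′ untranslated regions of inflammatory messages. Btg1, Btg2, Tob1 and Tob2 share a domain that holds the CCR4-NOT catalytic subunits Cnot7 and Cnot8, and they also contact the poly(A) tail binding protein Pabpc1, so that they speed up tail shortening. They are known as antiproliferative genes. Zfp36, Btg2 and several of their relatives belong to the immediate early genes, which are transcribed within minutes of a stimulus and whose own messages are short-lived.

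The libraries came from kidneys of wild-type (WT) mice that had received vehicle, L-alanine (L-ala) or D-alanine (D-ala), with 5 libraries per group at a time of 2 h. The alanines are mirror-image forms of the same amino acid. The dose, the route, the age of the mice and what the vehicle contained were not given in the sources used here. Differences between the treatments may therefore be those of dose as well as of mirror form. No transgene or deletion is named, and the whole kidney was the tissue. The labels do not say that the libraries came from separate animals, so p-values measure only the spread between these samples, which may be technical. The replicate numbers used here only name the libraries and pair nothing.

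Depth, estimated from the deposited counts assigned to genes, ran from 7.58 to 10.9 M counts per library. Proximal tubule markers, a check of the tissue, averaged 9.55 ± 0.06 on the log2(FPKM + 1) scale in the vehicle group (SD, n = 5). The library L-ala replicate 5 was unlike its group: on gene-centred values it correlated at -0.12 on average with the rest of the L-ala libraries, which had 0.12 to 0.14. As a stand-in for gene length, the deposited counts, which appear rescaled, were averaged over libraries and divided by the mean FPKM. Gene-centred expression followed this stand-in with a Spearman correlation across genes of -0.49 to -0.18 in L-ala replicates 1 to 4. The correlation was 0.23 in L-ala replicate 5 and -0.11 to 0.37 in the other libraries. With limma on log2(FPKM + 1), 769 genes rose and 580 fell in D-ala against vehicle at an adjusted p under 0.05. For L-ala against vehicle 763 rose and 534 fell, but after quantile normalization the split was 234 against 341. For D-ala against L-ala 826 were higher and 785 lower. These counts depended on single libraries: L-ala against vehicle gave 321 genes in all without vehicle replicate 4 and 2577 without L-ala replicate 5. It gave 391, 627 and 802 without L-ala replicates 4, 1 and 3, and 805 and 759 without vehicle replicates 1 and 2. D-ala against L-ala gave 770 without L-ala replicate 4 and 2763 without L-ala replicate 5, and 963 to 1057 without L-ala replicate 1 or D-ala replicate 1, 3 or 4. D-ala against vehicle gave 814 without vehicle replicate 4.

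The 3′ untranslated regions of the 8 genes were searched for ATTTA, the letters common to AU-rich elements. In the longest coding transcript of GENCODE M21, each of the 8 genes held at least 1 ATTTA in its 3′ untranslated region, against 68.9% of 10387 tested genes with an annotated one. The number was 3 in Zfp36, 9 in Zfp36l1, 5 in Zfp36l2, 3 in Zc3h12a, 11 in Btg1, 5 in Btg2, 3 in Tob1 and 4 in Tob2. Per kilobase that was 1.63 in Tob2 to 4.90 in Zfp36l1, and every gene lay above the median of 1.29 per kilobase. The longer form TATTTAT occurred 3 times in each Zfp36 family gene and once in Btg2 and in Tob2. It was absent from the other 3 genes, against 29.4% of tested genes with a match. The still longer ATTTATTTA was found among the 8 only in Zfp36l1, at 1, and in 6.23% of tested genes. The counts of these longer forms are not scaled to length. The regions ran from 767 bases in Tob1 to 4166 bases in Btg1, against a median of 1142 over tested genes. To show the letters, 30-base windows with a pair of ATTTA matches are printed for the genes with the widest differences and for Zfp36l1. The windows read 5′ to 3′ on the transcribed strand, with ATTTA in capitals. They lie in 3′ untranslated exons at chr7:28376963-28376992 (minus strand), chr1:134076018-134076047 (minus strand), chr11:94215042-94215071 (plus strand) and chr12:80108434-80108463 (minus strand) of GRCm38, the assembly behind mm10.
Zfp36: tgggccctttATTTAtgacgactttATTTA
Btg2: aaATTTAtttgtagatgtgtgcaatATTTA
Tob1: tggtcttttctaattgtataATTTAATTTA
Zfp36l1: aagcttATTTAacttatcaaaacgtATTTA
The windows differ in spacing: the Tob1 pair is back to back, and the others are separated by other letters. A match is a description of the letters and not a measured binding site.

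Promoters were read from RefSeq (GRCm38.p6), which gave a window from 250 bases before to 50 after the start for 7 of the 8 genes; Zfp36l2 had none in the table. The RefSeq start of Zfp36 lies 1025 bases inside the gene span of the GENCODE annotation given below, and that of Tob2 lies 470 bases inside, so the annotations place these starts differently. The cAMP response element TGACGTCA, the site of the CREB factors, was present in 1 of the 7 windows, that of Btg2, and in 1.79% of 32851 windows of the same length. Its TGACG core, searched on both strands and counted also inside the full element, was found in Btg1, Btg2, Tob1 and Zc3h12a and in 20.8% of all windows. A CArG box, the site of serum response factor, was found in Zfp36 and in 1.63% of all windows. The AP-1 motif TGANTCA was found in Zfp36l1 and in 7.81% of windows, TATAAA in Zfp36l1, Btg1 and Tob1 and in 13.6%, and the E-box CACGTG and the NF-kB consensus in none of the 7, against 7.15% and 8.46%. Tob2 held none of the motifs named here. The 200 bases before the start are printed for the genes with the widest differences between groups and for Btg1, which went the other way, with the TGACG core and its full element, on either strand, and the CArG box in capitals. The places are chr1:134079156-134079355 (minus strand), chr11:94211254-94211453 (plus strand), chr7:28379229-28379428 (minus strand) and chr10:96616801-96617000 (plus strand).
Btg2: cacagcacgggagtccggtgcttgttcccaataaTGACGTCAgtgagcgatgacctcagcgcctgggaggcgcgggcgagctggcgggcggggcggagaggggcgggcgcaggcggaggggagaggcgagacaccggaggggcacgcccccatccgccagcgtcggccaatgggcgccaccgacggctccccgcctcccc
Tob1: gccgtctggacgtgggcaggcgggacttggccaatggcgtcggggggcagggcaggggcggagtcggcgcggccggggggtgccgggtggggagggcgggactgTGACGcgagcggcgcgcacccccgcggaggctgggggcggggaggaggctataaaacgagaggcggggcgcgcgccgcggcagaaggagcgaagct
Zfp36: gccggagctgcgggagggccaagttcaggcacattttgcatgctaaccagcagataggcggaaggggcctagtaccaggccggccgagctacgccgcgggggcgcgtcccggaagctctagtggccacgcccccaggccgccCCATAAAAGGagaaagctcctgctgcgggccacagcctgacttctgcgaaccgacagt
Btg1: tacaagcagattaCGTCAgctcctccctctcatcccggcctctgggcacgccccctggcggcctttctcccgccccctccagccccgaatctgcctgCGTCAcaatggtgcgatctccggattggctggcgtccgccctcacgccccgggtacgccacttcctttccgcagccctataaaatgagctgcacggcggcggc
The full element of Btg2 lies 166 to 159 bases before the start, the core of Tob1 96 to 92 bases before it and the CArG box of Zfp36 58 to 49 bases before it. Btg1 holds the core at 187 to 183 and at 103 to 99 bases before its start. These are letters in a window, and no factor was measured.

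The 4 genes Zfp36, Btg2, Tob1 and Tob2 stood higher in every treated library than in any vehicle library, after D-ala and after L-ala. Btg1 was lower in every D-ala library than in any other library. Zfp36l1, Zfp36l2 and Zc3h12a overlapped with vehicle in both treated groups. In the fit across all genes, 5 of the 8 were past the call threshold for D-ala against vehicle, where 11.5% of tested genes were called, and the groups did not overlap for 5, against 10.9% of tested genes. For L-ala against vehicle 4 of the 8 were past it, where 11% of tested genes were called, and 4 did not overlap, against 7.24%. For D-ala against L-ala 3 of the 8 were past it, where 13.7% of tested genes were called, and 3 did not overlap, against 9.11%. Because the genes were picked with these values known, nothing is read from the counts. Against vehicle, the 8 genes had a median log2 fold change of 0.91 after D-ala and 0.42 after L-ala. When D-ala was set against L-ala it was 0.30. The medians over all tested genes were 0.00, 0.01 and -0.01 in that order. The comparisons share libraries, so their values are set side by side and are not independent. Without L-ala replicate 5, the log2 values against vehicle were 2.39 for Zfp36, 2.53 for Btg2, 0.67 for Tob1 and 1.07 for Tob2.

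**Figure D1:**
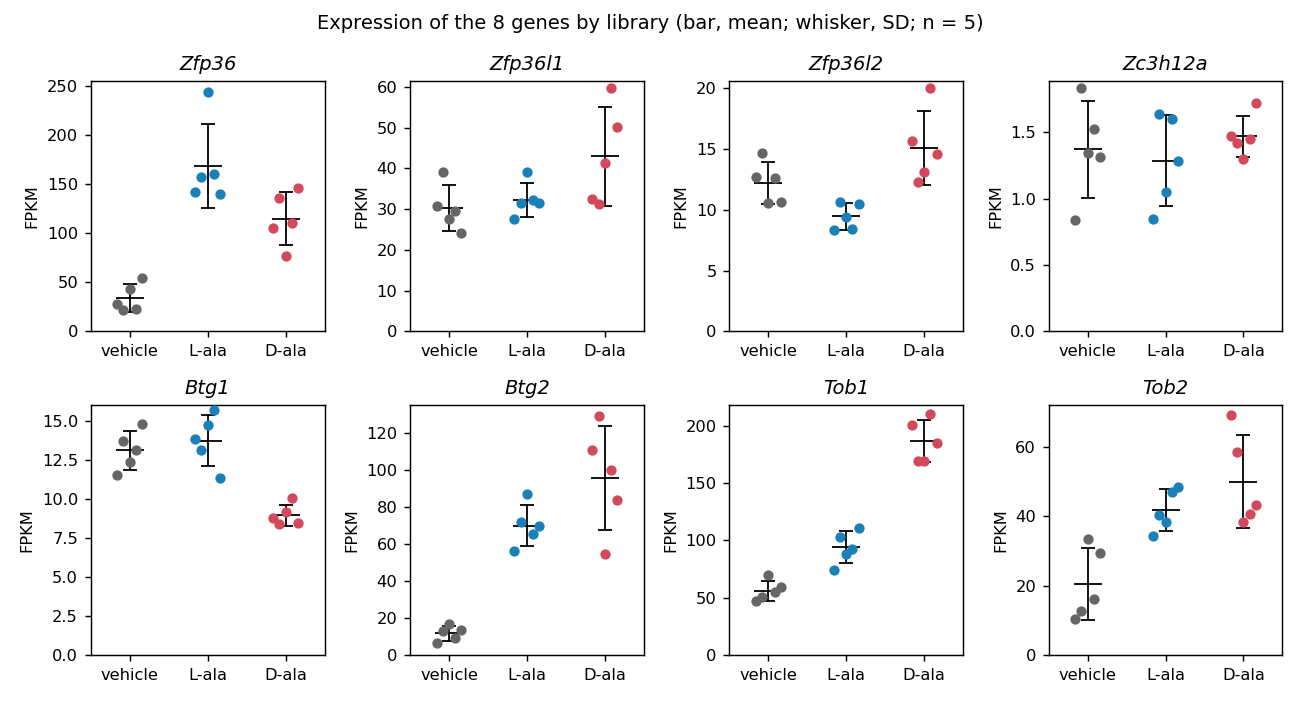
FPKM of each of the 8 genes (vertical axes, linear, from 0) in the 15 libraries, by group; points are libraries, bars the mean and whiskers the SD of 5 libraries. Zfp36, Btg2, Tob1 and Tob2 lie above all vehicle libraries in both treated groups, Btg1 lies below in the D-ala group, and Zc3h12a stays near 1 to 2 FPKM throughout.

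**Figure D2:**
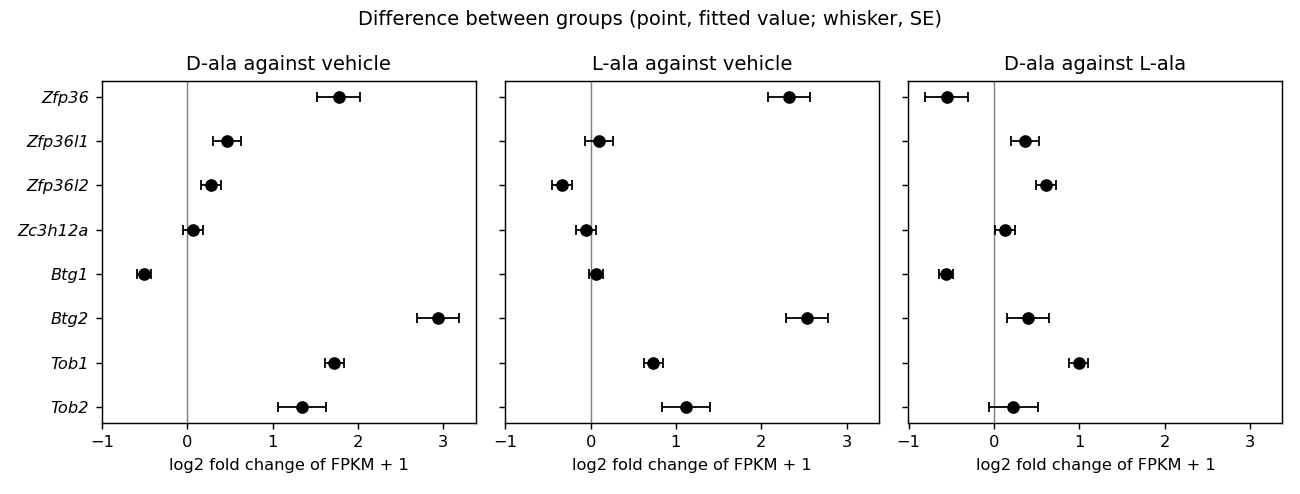
Log2 fold change of FPKM + 1 for each gene in the 3 comparisons, with the standard error of the fit as whiskers. Btg2 has the highest value of the 8 in both comparisons with vehicle, at 2.94 and 2.53, and Tob1 the highest for D-ala against L-ala, at 0.99.

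Zfp36, the founding member of its family, lies at chr7:28376784-28380253 on the minus strand. Vehicle libraries 1 to 5 held Zfp36 at 28, 22.1, 43, 23.1 and 54.6 FPKM. L-ala libraries 1 to 5 held it at 142.0, 156.9, 244.0, 160.1 and 139.6 FPKM. D-ala libraries 1 to 5 held it at 105.4, 135.8, 76.8, 110.1 and 145.8 FPKM. The lowest treated library, D-ala replicate 3, was still above the highest vehicle library, replicate 5. The group means were 34.2 ± 14.2, 168.5 ± 43.1 and 114.8 ± 27.2 FPKM for vehicle, L-ala and D-ala (SD, n = 5). On the log2(FPKM + 1) scale Zfp36 was higher by 2.33 (SE 0.25) after L-ala and by 1.77 (SE 0.25) after D-ala than after vehicle, ratios of the mean FPKM of 4.93 and 3.36. Ranked by fold change from the top of the 11781 tested genes, those differences were in places 20 and 33. L-ala and D-ala libraries overlapped, and their difference was -0.55 (SE 0.25) for D-ala against L-ala.

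Zfp36l1, which binds the same elements, lies at chr12:80107754-80113013 on the minus strand. Its vehicle libraries ran from 24 to 39.2 FPKM, its L-ala libraries from 27.6 to 39 FPKM and its D-ala libraries from 31.1 to 59.7 FPKM. The groups overlapped, and the high D-ala values were those of replicates 4 and 5, at 59.7 and 50.1 FPKM. Zfp36l1 differed from vehicle by 0.47 (SE 0.16) after D-ala and by 0.10 (SE 0.16) after L-ala on the log2(FPKM + 1) scale. The fit did not call it for D-ala against vehicle, though it did so without vehicle replicate 2 or without D-ala replicate 2.

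Zfp36l2, the third family member in kidney, lies at chr17:84183931-84187947 on the minus strand. In vehicle it measured 12.7, 14.7, 10.54, 12.7 and 10.6 FPKM in libraries 1 to 5. After L-ala it measured 8.33, 10.6, 9.37, 8.44 and 10.503 FPKM. After D-ala it measured 15.6, 12.3, 13.1, 20.03 and 14.6 FPKM. Vehicle thus lay between the treated groups and overlapped with both, while every D-ala library was above every L-ala library. The difference of D-ala against L-ala was 0.61 (SE 0.12) on the log2(FPKM + 1) scale, a ratio of means of 1.599. Against vehicle the values were 0.27 (SE 0.12) after D-ala and -0.34 (SE 0.12) after L-ala. The means of Zfp36 and Zfp36l2 had opposite orders in the treated groups: Zfp36 had its higher mean after L-ala and Zfp36l2 after D-ala. For Zfp36 the treated groups overlapped, and their difference was past the call threshold in 0 of 26 alternatives.

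Added up per library, the 3 Zfp36 family genes came to 76.7 ± 9.13 FPKM after vehicle, 210.3 ± 47 FPKM after L-ala and 172.9 ± 31 FPKM after D-ala (SD, n = 5). Zfp36 supplied 43.5% ± 13.2 of that sum after vehicle, 79.8% ± 2.37 after L-ala and 66.0% ± 7.64 after D-ala. In vehicle kidney Zfp36l1 supplied nearly as much, 40.2% ± 9.71, and after L-ala it supplied 15.6% ± 1.43. Zfp36l2 supplied 16.3% ± 3.57 after vehicle, 4.64% ± 1.01 after L-ala and 8.89% ± 1.85 after D-ala. Zfp36l3, a relative known from placenta, was at most 0.04 FPKM in any library and was not tested.

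Zc3h12a, the endonuclease, lies at chr4:125118423-125127840 on the minus strand and was the lowest of the 8 genes. Vehicle libraries ran from 0.84 to 1.84 FPKM, L-ala libraries from 0.85 to 1.64 FPKM and D-ala libraries from 1.30 to 1.72 FPKM. All 3 groups overlapped. The difference from vehicle was 0.07 (SE 0.12) after D-ala and -0.05 (SE 0.12) after L-ala on the log2(FPKM + 1) scale, which understates changes at such levels. Between 5.72% and 7.17% of tested genes had a lower group mean. The deposited count column, which appears rescaled, held 22 to 49 for Zc3h12a per library. Small differences of Zc3h12a may be missed at this level, and the smallest that could be seen was not computed.

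Its relatives were tested as genes from a list of 7 related CCCH and Btg genes, of which 2 passed the filter. Zc3h12c, another member of the Regnase family, fell from 4.59 ± 1.36 FPKM after vehicle to 2.62 FPKM after D-ala and 2.2 FPKM after L-ala, log2 changes of -0.60 (SE 0.14) and -0.79 (SE 0.14) with limma adjusted p of 0.0113 and 0.00567. N4bp1, a ribonuclease with a related catalytic domain, fell by 0.30 on the log2 scale after D-ala (SE 0.08, limma adjusted p 0.0222). After L-ala its value was -0.20 (limma adjusted p 0.106). Zc3h12b, Zc3h12d, Btg3 and Btg4 were under 1 FPKM in every library and were not tested.

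Btg1 lies at chr10:96617006-96622809 on the plus strand. In vehicle it measured 11.6, 13.7, 12.4, 13.1 and 14.8 FPKM in libraries 1 to 5. After L-ala it measured 13.9, 13.1, 14.8, 15.7 and 11.3 FPKM. After D-ala it measured 8.79, 8.39, 9.14, 10.03 and 8.46 FPKM. The D-ala libraries were all below the lowest of the other 10, and vehicle and L-ala overlapped. The group means were 13.1 ± 1.25, 13.8 ± 1.66 and 8.96 ± 0.67 FPKM for vehicle, L-ala and D-ala (SD, n = 5). On the log2(FPKM + 1) scale D-ala differed by -0.50 (SE 0.08) from vehicle and by -0.56 (SE 0.08) from L-ala, and L-ala differed by 0.06 (SE 0.08) from vehicle. Btg1 was the 1 gene of the 8 that was past the call threshold in the lower direction in these comparisons.

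Btg2, its closest relative and a known p53 target and early response gene, lies at chr1:134075170-134079120 on the minus strand. Vehicle libraries held Btg2 at 6.25, 13, 16.6, 9.10 and 13.4 FPKM. After L-ala the values were 55.8, 72.0, 86.7, 65.1 and 69.5 FPKM. After D-ala they were 110.4, 128.9, 54.4, 99.9 and 83.3 FPKM. The lowest treated library, again D-ala replicate 3, was above the highest vehicle library. Btg2 was thus higher by 2.94 (SE 0.25) after D-ala and by 2.53 (SE 0.25) after L-ala on the log2(FPKM + 1) scale, with ratios of the mean FPKM of 8.17 and 5.98. Those differences were in places 6 and 12 from the top of the tested genes. The treated groups overlapped, with a difference of 0.40 (SE 0.25) for D-ala against L-ala. The group mean of Btg2 stood above 54.2% of tested genes after vehicle, 87.6% after L-ala and 91.2% after D-ala. Btg1 and Btg2 were close in vehicle, at 13.1 and 11.7 FPKM, and after D-ala they were 8.96 and 95.4 FPKM.

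Tob1 lies at chr11:94211454-94215495 on the plus strand and had the highest vehicle level of the 8 genes. In vehicle it measured 46.7, 50.2, 69.6, 54.6 and 59.0 FPKM. After L-ala it measured 74.4, 103.2, 87.9, 92.8 and 110.8 FPKM. After D-ala it measured 200.4, 168.9, 168.7, 210.0 and 184.6 FPKM. The 3 groups did not overlap with each other, in the order vehicle, L-ala, D-ala. The group means were 56.0 ± 8.90, 93.8 ± 14 and 186.5 ± 18.5 FPKM (SD, n = 5). On the log2(FPKM + 1) scale Tob1 was higher than vehicle by 1.73 (SE 0.11) after D-ala and by 0.73 (SE 0.11) after L-ala, and D-ala was higher than L-ala by 0.99 (SE 0.11). The ratio of means for D-ala against L-ala was 1.99, in place 40 from the top of the tested genes.

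Tob2 lies at chr15:81848272-81858796 on the minus strand. Vehicle libraries held it at 10.3, 12.7, 33.5, 16.2 and 29.5 FPKM. After L-ala the values were 34.2, 40.5, 38.4, 47.1 and 48.6 FPKM. After D-ala they were 69.3, 58.6, 38.3, 40.6 and 43.2 FPKM. Vehicle replicates 3 and 5 reached nearly to the lowest L-ala library, 33.5 against 34.2 FPKM, so the groups were separate by a narrow margin. Tob2 was higher than vehicle by 1.35 (SE 0.28) after D-ala and by 1.12 (SE 0.28) after L-ala on the log2(FPKM + 1) scale. The treated groups overlapped, with a difference of 0.23 (SE 0.28). For L-ala against vehicle, Tob2 was past the call threshold in 21 of 26 alternatives. It was not past it without vehicle replicate 2 (0.99), without vehicle replicate 4 (1.08), without L-ala replicate 4 (1.08), with only those groups fitted (1.12), or without the 3 libraries of lowest depth (0.79).

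The sum of Btg1, Btg2, Tob1 and Tob2 was 101.2 ± 22.9 FPKM after vehicle, 219.1 ± 23.9 FPKM after L-ala and 340.9 ± 46.5 FPKM after D-ala (SD, n = 5). The lowest D-ala sum, 270.6 FPKM, was above the highest L-ala sum, 240.3 FPKM, and the lowest L-ala sum, 178.4 FPKM, was above the highest vehicle sum, 132.1 FPKM. Tob1 supplied the largest share in each group, 56.1% ± 4.72 after vehicle, 42.7% ± 2.98 after L-ala and 55.2% ± 6.32 after D-ala. Btg2 supplied 11.3% ± 2.40, 31.9% ± 3.64 and 27.5% ± 5.45 in the same order. Btg1 supplied 13.4% ± 2.51, 6.36% ± 1.19 and 2.67% ± 0.45. The mean sum of the Zfp36 family was higher after L-ala, but its sums overlapped between the treated groups, at 177.9 to 292.4 FPKM after L-ala and 131.3 to 210.5 FPKM after D-ala.

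**Figure D3:**
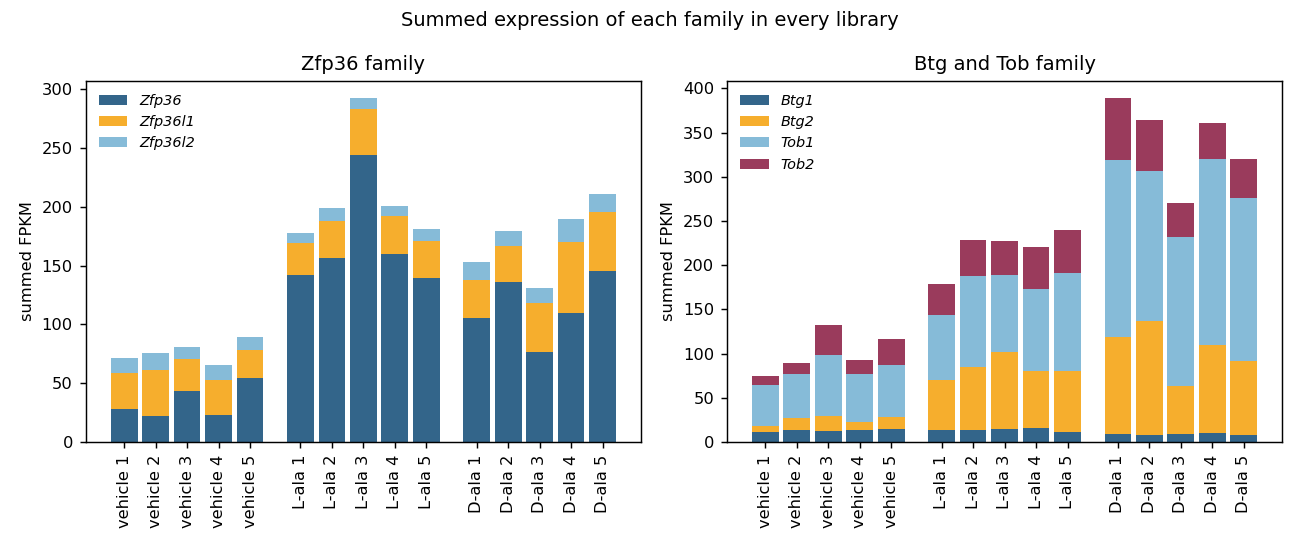
Summed FPKM (vertical axes, linear, from 0) of the 3 Zfp36 family genes, left, and of the 4 Btg and Tob genes, right, in each library, with the colours giving each gene's part. The Btg and Tob sums of the 3 groups do not overlap, and Zfp36 makes up most of its family's sum in the treated libraries.

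The order of the libraries within a group was partly shared among Zfp36, Btg2, Tob1 and Tob2. Vehicle replicates 3 and 5 were the highest pair of their group for all 4 of Zfp36, Btg2, Tob1 and Tob2. D-ala replicate 3 was the lowest of its group for all 4, and L-ala replicate 1 was the lowest of its group for 3 of them, Zfp36 being lowest in L-ala replicate 5. The order was not shared throughout: L-ala replicate 5 was the highest of its group for Tob1 and Tob2, and L-ala replicate 3, the highest for Zfp36 and Btg2, was next to the lowest for Tob1 and Tob2. The mean log2(FPKM + 1) of these 4 genes was 5.21 and 5.12 in vehicle replicates 3 and 5 and 4.2 to 4.46 in the other 3 vehicle libraries. The mean of 30 immediate early genes outside the 8 was likewise highest in vehicle replicate 3 among vehicle libraries, at 3.78, lowest in L-ala replicate 1, at 4.29, and lowest in D-ala replicate 3, at 4.34. It did not set vehicle replicate 5 apart, which had 3.41 beside 3.4 in replicate 2. What differed between those libraries is not given in the labels, and its part in the values was not tested.

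The genes whose pattern over the 15 libraries was most like that of each regulator were found by Pearson correlation of log2(FPKM + 1) among 7540 genes, or 7541 for Zc3h12a, with a mean of at least 5 FPKM. The 15 points include the differences between groups and share libraries, so the values are descriptions. For Zfp36 they were Jun (r = 0.973), Arl4d (0.938) and Junb (0.935). For Btg2 they were Hbegf (0.970), Junb (0.961) and Gdf15 (0.955). Jun and Junb encode AP-1 subunits, Hbegf an EGF receptor ligand and Gdf15 a stress-induced cytokine. Tob1 was nearest to the histone gene H3f3b (0.958), the salt-inducible kinase gene Sik1 (0.956) and the helicase gene Mov10 (0.948). Tob2 was nearest to the clock gene Per1 (0.957), Oaf (0.954) and the EGF receptor inhibitor Errfi1 (0.949). Each of these 2 Tob genes had neighbours with their highest mean after D-ala: H3f3b averaged 109, 152 and 297 FPKM after vehicle, L-ala and D-ala, and Per1 averaged 13.3, 21.4 and 34.2 FPKM. Zfp36's nearest gene, Jun, averaged 17.2, 98.2 and 61.0 FPKM, with L-ala the highest. Btg1 was nearest to Mkks (0.924), Pxmp3 (0.903) and Rabep1 (0.900), which were each lowest after D-ala. Zfp36l2 was nearest to Pcdh1 (0.949), Mtor (0.920) and Egln3 (0.916), each lowest after L-ala. Zfp36l1 was nearest to Plekhf2 (0.904), Hoxa10 (0.852) and Irx3 (0.824). Zc3h12a had weaker neighbours, led by Xpo6 (0.754), Ergic1 (0.747) and Dpp9 (0.722).

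Both families act through the CCR4-NOT complex. With limma 0 of its 12 tested subunits were called for D-ala against vehicle, where 11.5% of all tested genes were called, 1 had an unadjusted p under 0.05, and their median log2 fold change was -0.07, against 0.00 over all tested genes. For L-ala against vehicle, 2 fell and 10 did not pass, beside 11% of all tested genes called. Cnot7, the catalytic subunit that Btg and Tob proteins hold, fell from 13.3 to 10.7 FPKM after L-ala (log2 -0.30, SE 0.06, limma adjusted p 0.0119), and the accessory subunit Tnks1bp1 fell from 8.54 to 6.41 FPKM (-0.36, SE 0.09, adjusted p 0.0258). In D-ala against L-ala, Cnot7 was higher by 0.20 (adjusted p 0.0427) and its paralog Cnot8 differed by -0.18 (adjusted p 0.0393). The scaffold Cnot1 was at 7.38, 6.27 and 7.01 FPKM after vehicle, L-ala and D-ala, with limma adjusted p of 0.234 and 0.773 against vehicle. Without L-ala replicate 5, 4 subunits fell and 1 rose in L-ala against vehicle, and 1 fell without vehicle replicate 1, vehicle replicate 4 or L-ala replicate 4.

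Of 12 tested genes for poly(A) binding proteins, their regulators and other deadenylases, 2 rose and 1 fell after D-ala, and 2 fell after L-ala. The shares of all tested genes called were 11.5% after D-ala and 11% after L-ala. Noct, a circadian gene related to deadenylases and listed as Ccrn4l, rose from 27 ± 26.2 to 85.3 FPKM after D-ala (log2 2.08, SE 0.54, limma adjusted p 0.0288). After L-ala it was 67.6 FPKM, with an adjusted p of 0.0577. Pabpc1, the tail binding protein that Btg and Tob proteins contact, fell from 64.0 to 54.6 FPKM after L-ala (-0.23, SE 0.07, adjusted p 0.0366) and was 61.3 FPKM after D-ala (adjusted p 0.616). Paip2b, which displaces it from the tail, fell by 0.32 on the log2 scale after D-ala and by 0.47 after L-ala (limma adjusted p 0.0166 and 0.00405). The risers after D-ala were 0 without vehicle replicate 4, D-ala replicate 1 or D-ala replicate 3. After L-ala 1 fell without vehicle replicate 1, 2, 3 or 4 or without L-ala replicate 1, 3 or 4.

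Decapping and the exosome carry out the later steps of decay. The counts of their genes stand beside 11.5% of all tested genes called after D-ala and 11% after L-ala. Among 19 tested decapping and 5′ decay genes, 3 fell and 0 rose after D-ala with limma (7 and 2 at an unadjusted p under 0.05), and 2 rose and 1 fell after L-ala. After D-ala 0 fell without vehicle replicate 4, and 1 fell without vehicle replicate 1 or 3 or without D-ala replicate 3, 4 or 5. After L-ala 0 rose without vehicle replicate 2 or 4 or without L-ala replicate 1, 3 or 4. Lsm14a and Ddx6, which act in the repression of messages in P-bodies, fell by 0.25 and by 0.16 on the log2 scale after D-ala (limma adjusted p 0.0185 and 0.0384). Eif4enif1, which links the cap binding protein to decay, fell by 0.30 on the log2 scale after L-ala (adjusted p 0.0152). Of 15 exosome and Ski genes, 1 fell after D-ala, Exosc6 with -0.32 (limma adjusted p 0.0494), and 1 rose after L-ala, Exosc3 with 0.25 (adjusted p 0.0262). Of 26 alternatives, 19 gave 0 exosome genes falling after D-ala, and 0 rose after L-ala without vehicle replicate 2 or 4 or L-ala replicate 1, 3 or 4. Without L-ala replicate 5, 3 exosome genes rose after L-ala, and 4 were lower in D-ala against L-ala. In D-ala against L-ala, 1 decapping gene was higher and 4 lower, and 2 exosome genes were lower, Exosc6 with -0.56 (limma adjusted p 0.00348). In that comparison 13.7% of all tested genes were called.

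Of 21 other tested proteins that bind 3′ untranslated regions, 2 rose and 2 fell after D-ala, 2 rose after L-ala, and 2 were higher and 2 lower in D-ala against L-ala. Without L-ala replicate 5 the last comparisons gave 2 up and 3 down, and 5 higher and 2 lower. After L-ala 0 rose without vehicle replicate 1 or 4 or without L-ala replicate 1, 3 or 4. In the main fit 11.5% of all tested genes were called after D-ala and 11% after L-ala. For D-ala against L-ala the share was 13.7%. Cirbp, a cold-inducible RNA binding protein with a circadian rhythm, rose from 31.6 to 69.4 FPKM after D-ala and was 32.7 FPKM after L-ala. Its log2 changes were 1.12 against vehicle and 1.07 against L-ala (SE 0.14, limma adjusted p 1.89e-04 and 5.79e-04). Hnrnpd, which also binds AU-rich elements, rose by 0.38 after D-ala (SE 0.07, adjusted p 0.00375). Pum2, a translational repressor, fell by 0.28 on the log2 scale after D-ala (adjusted p 0.00548). Elavl1 (HuR), which stabilises AU-rich messages, rose by 0.32 after L-ala (adjusted p 0.0436) and had 0.12 after D-ala (adjusted p 0.453).

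Zfp36 is held inactive and stable by phosphorylation through p38 and Mapkapk2, with 14-3-3 proteins bound. Of 17 tested genes for those kinases, phosphatases and 14-3-3 proteins, 2 rose after D-ala, and 5 rose and 1 fell after L-ala. The risers after L-ala were 1 without vehicle replicate 4, without L-ala replicate 4 or with only those groups fitted, and 2 without vehicle replicate 1, without L-ala replicate 1 or after quantile normalization. After D-ala 1 rose in 13 of 26 alternatives. Over all tested genes, 11.5% were called after D-ala and 11% after L-ala in the main fit. Dusp1, the phosphatase that switches p38 off and itself an early gene, rose from 53.1 ± 36.6 to 235.0 FPKM after D-ala (log2 2.35, SE 0.33) and to 219.1 FPKM after L-ala (2.23, SE 0.33), with limma adjusted p of 7.16e-04 and 0.00325. Mapkapk2 rose by 0.24 after D-ala (adjusted p 0.046). Mapkapk3 fell by 0.51 on the log2 scale after L-ala (SE 0.10, adjusted p 0.0102). Among 7 tested partners of the Btg and Tob proteins outside CCR4-NOT, 1 rose and 2 fell after D-ala, and 2 fell after L-ala, beside the same shares of all tested genes. After L-ala 0 fell without vehicle replicate 4, L-ala replicate 1 or L-ala replicate 4. Smad5 fell by 0.33 on the log2 scale after D-ala (limma adjusted p 0.00455), and Smad1 rose by 0.39 (adjusted p 0.0113).

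Messages known as targets of Zfp36 or Zc3h12a included risers in both treated groups. Of 34 such genes, 23 were tested. After D-ala 8 rose, 0 fell with limma (12 and 0 at an unadjusted p under 0.05) and 15 did not pass, with a median log2 fold change of 0.30. After L-ala 10 rose, 2 fell and 11 did not pass, with a median of 0.61. The shares over all tested genes were 11.5% called after D-ala and 11% after L-ala. Across the alternatives, 7 to 11 rose and 0 fell after D-ala, and 7 to 11 rose and 1 to 2 fell after L-ala. In D-ala against L-ala, 3 targets were higher and 2 lower in the main fit. Across the alternatives 3 to 4 were higher and 0 to 4 lower in that comparison. Several of the targets are immediate early genes themselves, Junb, Dusp1, Fos, Ier3, Myc, Egr1 and Klf2 being in both lists. Junb rose from 18.7 to 86.4 FPKM after D-ala and to 105.0 FPKM after L-ala, log2 changes of 2.17 and 2.44 (SE 0.23, limma adjusted p 6.49e-05 and 1.81e-04). Cxcl1, a neutrophil attractant, rose from 1.26 FPKM to 24.9 FPKM after D-ala and 69.9 FPKM after L-ala, as group means. D-ala against L-ala gave -1.87 for Cxcl1 (SE 0.57, limma adjusted p 0.0479), a call close to the threshold of 0.05. Cxcl2, of the same kind, was 0.11 FPKM after vehicle, 3.94 FPKM after L-ala and 0.40 FPKM after D-ala, and D-ala against L-ala gave -1.80 (SE 0.20, limma adjusted p 6.84e-05). Vegfa, the endothelial growth factor, rose from 50.7 to 88.2 FPKM after D-ala (0.78, SE 0.10, adjusted p 1.40e-04) and was 47.4 FPKM after L-ala (adjusted p 0.504). Pim1 was 3.43, 2.38 and 4.29 FPKM after vehicle, L-ala and D-ala, with 0.65 in D-ala against L-ala (limma adjusted p 8.25e-04). The classical targets Tnf, Il6, Il10 and Csf2 were under 0.3 FPKM in every library and were not tested. RNA levels at 1 time do not separate synthesis from decay.

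**Figure D4:**
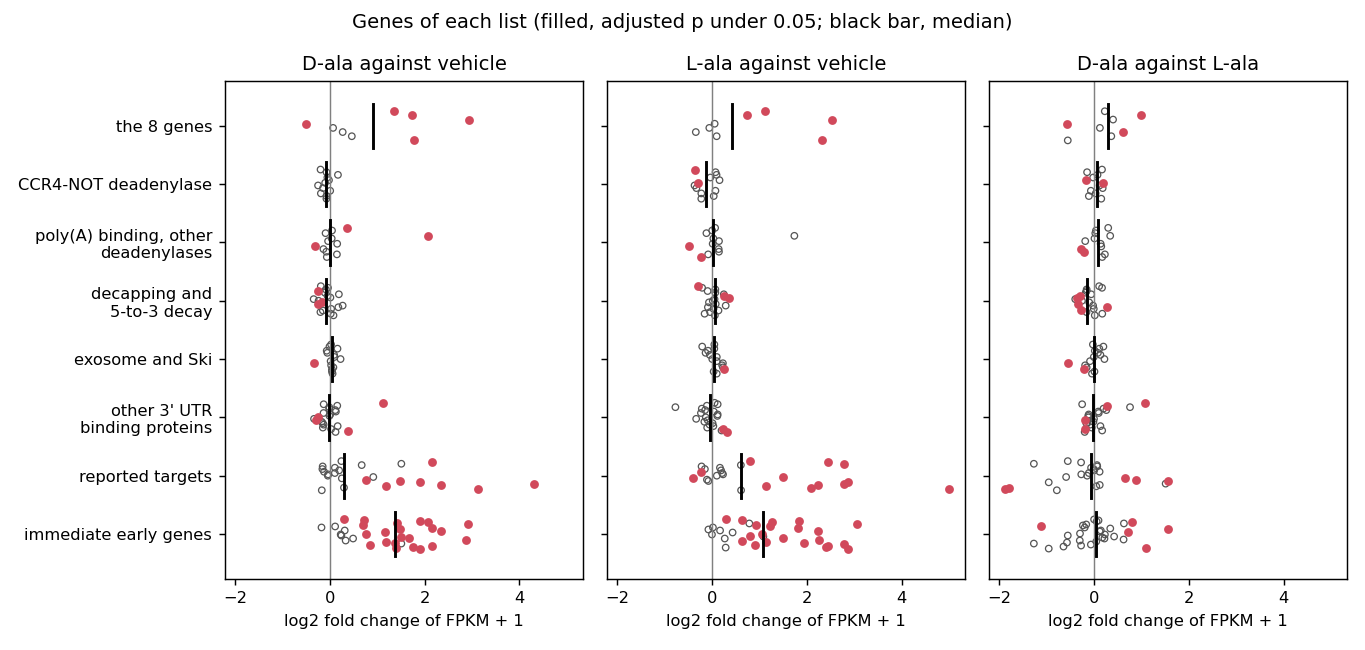
Log2 fold change of FPKM + 1 for the tested genes of each list in the 3 comparisons (points; filled where the adjusted p was under 0.05; vertical bar, median of the list). The CCR4-NOT, poly(A), decapping and exosome lists have medians from -0.15 (decapping) to 0.09 (poly(A)), both in D-ala against L-ala. Noct stands apart at 2.08 after D-ala. The immediate early list has medians of 1.38 for D-ala and 1.07 for L-ala against vehicle.

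The immediate early genes outside the 8 set the scale for Zfp36, Btg2, Tob1 and Tob2. Of 30 tested with limma, 22 rose and 0 fell after D-ala (27 and 0 at an unadjusted p under 0.05), with a median log2 fold change of 1.38. After L-ala 21 rose and 0 fell (24 and 0 at an unadjusted p under 0.05), with a median of 1.07. The shares of all tested genes called were 11.5% after D-ala and 11% after L-ala. Zfp36, Btg2, Tob1 and Tob2 had 1.77, 2.94, 1.73 and 1.35 after D-ala and 2.33, 2.53, 0.73 and 1.12 after L-ala. In D-ala against L-ala, 4 of the 30 were higher, 1 was lower and 25 did not pass, where 13.7% of all tested genes were called. Myc was higher by 1.56 (SE 0.27, limma adjusted p 0.00348) and Fosl2 by 1.10 (SE 0.26, adjusted p 0.0158), and Arc was the gene that was lower, with -1.12 (SE 0.28, adjusted p 0.0192). The median over the 30 was 0.05 in that comparison. Tob1, at 0.99, had the same sign as Myc and Fosl2, and Zfp36, at -0.55 with overlapping groups, the same sign as Arc. A gene that is past the threshold in 1 comparison with vehicle and not in the other is not shown to differ by that alone.

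Neutrophil markers were higher in the L-ala group, where the mean of Zfp36 was highest. The mean log2(FPKM + 1) of 9 neutrophil markers was 0.93 ± 0.18 after L-ala (0.77 to 1.16) and 0.38 ± 0.18 after vehicle (0.10 to 0.53), with an exact two-sided permutation p of 0.00794, the smallest that 5 against 5 allows, and 0.0437 adjusted over 33 marker tests. After D-ala it was 0.45 ± 0.20 (0.29 to 0.76). Of these markers Camp was at 0 in every library, 5 averaged under 0.1 FPKM, and S100a8 and S100a9 carried the difference with 11.5 and 10.2 FPKM after L-ala against 2.24 and 2.12 FPKM after vehicle. The 9 red blood cell markers averaged 4.46 ± 0.34 after L-ala (4.11 to 4.90), 3.23 ± 0.78 after vehicle (2.29 to 4.13) and 3.38 ± 0.63 after D-ala (2.57 to 4.28), with an exact permutation p of 0.0159 for L-ala against vehicle and 0.0656 adjusted. The 10 macrophage markers averaged 2.60 ± 0.17 after D-ala (2.43 to 2.88) and 3.03 ± 0.18 after vehicle (2.81 to 3.25), with an exact permutation p of 0.0159 and 0.0656 adjusted. After L-ala they averaged 2.78 ± 0.15 (2.60 to 2.96), with an adjusted exact permutation p of 0.161. The 8 endothelial markers averaged 2.92 ± 0.21 after D-ala (2.65 to 3.15), 2.80 ± 0.34 after L-ala (2.42 to 3.26) and 3.35 ± 0.25 after vehicle (2.94 to 3.55), with an exact permutation p of 0.0317 and 0.0872 adjusted in both. The 10 lymphocyte markers stayed at 0.22 to 0.48 in all libraries. Of them 0 passed the filter and 2 averaged under 0.1 FPKM, so they say little of lymphocytes at this level. They averaged 0.29 ± 0.06 after D-ala against 0.35 ± 0.09 after vehicle (exact permutation p 0.222). Btg1, known for its high level in lymphocytes, was lower after D-ala, and a link to these markers was not tested. The 12 proximal tubule markers averaged 9.71 ± 0.07 after D-ala and 9.73 ± 0.07 after L-ala against 9.55 ± 0.06 after vehicle (exact permutation p 0.00794 and 0.0437 adjusted, in both). The 4 thick ascending limb markers averaged 7.16 ± 0.20 after L-ala (6.87 to 7.33) and 7.48 ± 0.08 after vehicle (7.41 to 7.60), with the same exact permutation p and adjusted value. The 9 distal tubule and collecting duct markers averaged 5.89 ± 0.11 after D-ala (5.80 to 6.07) and 5.74 ± 0.06 after vehicle (5.64 to 5.78), again with 0.00794 and 0.0437 adjusted by the exact permutation test. That list was not uniform: with limma 3 rose, 5 did not pass and 1 fell. The last was Aqp2, at 289.7 FPKM after vehicle and 214.2 FPKM after D-ala (log2 -0.43, SE 0.09, limma adjusted p 0.00691). Slc4a1 was counted in this list and in that of red blood cells. In whole kidney, fewer cells of a type and less RNA per cell cannot be told apart, and the part of any of these cells in the levels of the 8 genes was not tested.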

How the data were processed

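Per the file headers, 1 deposited table gave 3 values per gene and library, and no column was left unmapped. The deposited FPKM, as the authors scaled them to length and depth, were analysed. The deposited log2 processed signal was, over 10664 genes, within 0.0012 of log2 FPKM centred per gene. The deposited count column is a rescaled score rounded to whole numbers, so no count model was fitted; it gave the depth estimate of 7.58 to 10.9 M reads. Per the labels' protocols, RNA was isolated with TRIzol and made into TruSeq stranded mRNA libraries. Per the submitters' processing notes, mm10, SAMtools 0.1.19, Bowtie2 2.2.3 and TopHat2 2.0.13 were used, in roles not stated. The quantification program, its annotation and its strand setting were not given in the sources used here. Overlapping or antisense genes may thus share reads.

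Values were taken as log2(FPKM + 1). With limma 3.58.1 (R 4.3.3; trend and robust moderation), group means were fitted over all 15 libraries for 11781 genes, leaving out 11503. All adjusted p-values are Benjamini-Hochberg over these genes, called under 0.05. For marker lists, exact two-sided permutation tests were run in SciPy 1.17.1. On simulated data for D-ala against vehicle over 11781 genes, the fit recovered 97% of changes of 1 on the log2 scale and 100% of changes of 2. The simulated noise was normal and independent between genes, with no effect shared within a library. The rates therefore check the code and do not carry over to the deposited libraries. The 8 genes and all lists were chosen with earlier results of these data known. Named genes were the 8, up to 3 called genes per list and comparison by smallest p, and the 3 closest correlates of each of the 8; members of lists that are given with values for a second comparison, and genes under the filter, are named beside them. Fos, Ier3, Egr1, Klf2 and Cnot1 were named after their values were seen.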

Additional observations from a re-analysis of the deposited data

Results flagged for a closer look

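Zfp36 in L-ala replicate 3, at 244.0 FPKM, lay far above the other 4 L-ala libraries, which ran from 139.6 to 160.1 FPKM. On the log2(FPKM + 1) scale, the gap to the nearest library was 0.754 of the group's whole range, above the Dixon critical value for 5 samples. Chance gives about 1 such gap in 20 groups, and 24 groups were examined for the 8 genes. Without that library the log2 fold change of Zfp36 for L-ala against vehicle was 2.19, against 2.33 with it, and D-ala against L-ala gave -0.41, against -0.55.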

How the results depend on the processing

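Across 26 alternatives no fold change of the 8 genes that was past the call threshold changed direction. The call of Tob2 in L-ala against vehicle held in 21 of 26, and Zfp36l1 in D-ala against vehicle and Zfp36l2 in L-ala against vehicle were each called in 2. With at least 1 FPKM required in all 15 libraries, Zc3h12a drops out and the median over the other 7 genes became 1.35 for D-ala and 0.73 for L-ala against vehicle. Genes called in L-ala against vehicle, 1297 in the main fit, numbered 575 after quantile normalization (234 up and 341 down, against 763 and 534). They numbered 603 with only those groups fitted. Removing each library's trend with the stand-in for gene length, an alternative chosen after seeing the data, gave 746. For D-ala against L-ala 975 were called with only those groups fitted, against 1611; the cause was not tested. With each library left out in turn, calls ran from 814 to 1591 for D-ala against vehicle, from 321 to 2577 for L-ala against vehicle and from 770 to 2763 for D-ala against L-ala. The 8 genes then gave 5 to 6, 3 to 5 and always 3 calls, with medians of 0.82 to 0.998, 0.39 to 0.48 and 0.22 to 0.34. No paired analysis was possible because replicate numbers were given in sample order only. Depth limits what can be said of Zc3h12a, at 22 to 49 rescaled counts.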
